A study of Mus musculus with 82 samples.

Results

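The Krüppel-like factor (KLF) genes Klf2, Klf3, Klf4, Klf5, Klf6, Klf9, Klf10, Klf11, Klf13 and Klf15 were taken by name from the gene column of the deposited count tables and make up 10 of 55401 listed genes. The data are RNA sequencing of primary smooth muscle cells from the aorta of C57BL/6 mice (aVSMC), grown with serum, insulin, EGF and hydrocortisone and then kept for 24 h without serum or supplements. All groups share this preparation, the controls included. Stimuli were EGF (10 µg/L), the ligand of EGFR, angiotensin II (AngII, 10 nM), the ligand of AT1R, and U46619 (1 µM), a stable thromboxane analog that activates the receptor TP. After 24 h, 7 groups were sequenced with cultures of 6 mice each: an unstimulated control, the 3 single stimuli, AngII or U46619 combined with EGF, and all 3 stimuli at once. After 48 h, 6 groups were sequenced in 10 culture sets of 2 batches, 5 sets with control, EGF, U46619 and EGF+U46619 and 5 with control, EGF, AngII and EGF+AngII, so that control and EGF have n = 10 and the other groups n = 5. The cells were used within a limited number of passages. A transcript can fall because fewer cells carry it or because each cell holds less of it, which bulk RNA cannot tell apart.

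KLFs are transcription factors with zinc fingers that read GC-rich and CACCC sequences, and the family divides by the partners its members recruit. KLF15 is known for the control of amino acid and glucose metabolism, is induced by glucocorticoids and restrains smooth muscle growth. KLF4 and KLF5 are known for the change of smooth muscle cells between contractile and proliferative states, KLF2 for the response of the vessel wall to flow, and KLF10 and KLF11 as early targets of TGF-beta that recruit the Sin3 corepressor, as do KLF9 and KLF13.

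The promoters of the KLF genes were searched for the letters that KLF and Sp proteins read. RefSeq promoters on GRCm38.p6 were at hand for 8 of the 10 genes, and not for Klf5 and Klf10. In the 250 bases before the start, 7 of the 8 held at least 1 GC box (GGGCGG, either strand), which 32.7% of 32851 mouse promoters hold in a window of the same length, and 5 of the 8 held a CACCC box (CACCC, either strand), held by 52.0%. The sequences of the 4 genes that fell together with U46619 are shown first, then Klf4, which did not pass the test in any comparison. Capitals mark GC boxes and CACCC boxes of either strand, which may overlap, and each sequence stops at or before the earliest start that GENCODE gives the gene, so no transcribed base is shown.
Klf15, chr6:90462326-90462575, plus strand: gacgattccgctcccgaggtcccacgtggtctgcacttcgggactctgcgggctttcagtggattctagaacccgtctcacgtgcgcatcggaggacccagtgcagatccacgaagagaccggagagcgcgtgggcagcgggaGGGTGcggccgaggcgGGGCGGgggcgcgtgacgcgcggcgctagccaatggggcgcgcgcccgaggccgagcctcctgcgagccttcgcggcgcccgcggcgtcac
Klf11, chr12:24651121-24651273, plus strand: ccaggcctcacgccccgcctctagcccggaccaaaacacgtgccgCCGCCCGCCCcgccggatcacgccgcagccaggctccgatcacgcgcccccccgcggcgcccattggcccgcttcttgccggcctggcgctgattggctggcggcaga
Klf2, chr8:72318812-72319032, plus strand: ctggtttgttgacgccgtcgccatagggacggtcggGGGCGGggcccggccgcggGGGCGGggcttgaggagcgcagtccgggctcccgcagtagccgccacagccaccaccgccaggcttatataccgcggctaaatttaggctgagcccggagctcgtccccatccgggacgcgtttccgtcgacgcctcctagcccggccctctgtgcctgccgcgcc
Klf3, chr5:64803271-64803387, plus strand: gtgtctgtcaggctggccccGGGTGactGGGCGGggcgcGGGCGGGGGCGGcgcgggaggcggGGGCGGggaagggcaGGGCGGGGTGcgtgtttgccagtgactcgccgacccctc
Klf4, chr4:55532476-55532725, minus strand: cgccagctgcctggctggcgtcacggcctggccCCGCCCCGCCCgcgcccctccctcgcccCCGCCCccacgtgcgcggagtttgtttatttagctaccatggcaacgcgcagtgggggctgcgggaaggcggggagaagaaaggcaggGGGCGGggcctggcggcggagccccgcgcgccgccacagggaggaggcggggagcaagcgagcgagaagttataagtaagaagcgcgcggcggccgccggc

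In the whole 250-base windows, the GC box counts were 6 for Klf3, 4 for Klf4, 4 for Klf11, 3 for Klf13, 2 for Klf2, 1 for Klf6, 1 for Klf15 and 0 for Klf9. CACCC boxes numbered 5 in Klf3, 1 each in Klf2, Klf9, Klf13 and Klf15, and 0 in Klf4, Klf6 and Klf11. The genes that fell with U46619 held 1 to 6 GC boxes, and Klf4, Klf13, Klf6 and Klf9, which were not called with it, held 0 to 4. Whether these boxes go with the response was not tested. None of the 8 windows held a cAMP response element (TGACGTCA, in 1.55% of promoters), a glucocorticoid half-site (AGAACA, 16.1%) or a TATA box (TATAAA, 12.4%). An AP-1 site (TGANTCA, 6.75%) stood in Klf9 alone. GC content ran from 59.6% in Klf9 to 78.4% in Klf3, above the median of 52.4% over all promoters in each of the 8. The promoters behind the shares given here were not matched for GC content.

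All 10 genes passed the filter on low counts at both times. Libraries held 16483529 to 20818809 counts after 24 h and 19936925 to 33916114 after 48 h. Values are fragment counts scaled to library size (FPM), set separately at each time point, and levels of different genes are compared only as FPM per kilobase of exon. A gene was called when edgeR and DESeq2 both gave an FDR (Benjamini-Hochberg adjusted p over all genes) under 0.05 and 1 of the groups compared had a mean of at least 5 FPM. Shares of all genes count every gene tested, also those under 5 FPM, such as Klf5, that could not be called. The smooth muscle marker Acta2 ranged from 287 to 15164 FPM over the 82 libraries and Myh11 from 0.149 to 276 FPM, while Tagln and Cnn1 are listed at 0 with every gene of chromosome 9. Of 7 endothelial markers 6 were detected, with Cdh5 listed at 0, and their summed level ran from 1.84 to 2610 FPM between libraries. 2 libraries stood apart. The 24 h EGF+AngII+U46619 library of mouse 3 deviated most from its group (SD of its deviations 1.23 on the log2 scale), and the 48 h control library of EGF/AngII culture set 4 had a mean correlation of -0.36 with the other libraries of its own set. KLF values without them are given beside the results they moved.

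In control cultures, Klf6 was the most abundant of the 10 genes per exon length and Klf5 the least. After 24 h, Klf6, an early-response KLF, stood at 35.7 ± 14.5 FPM per kilobase (SD, n = 6). Klf4 followed with 23.0 ± 11.8 and Klf2 with 17.3 ± 9.14 FPM per kilobase. Klf9, Klf10, Klf15, Klf13 and Klf3 lay close together, with means of 12.5, 10.5, 10.4, 9.68 and 7.79 FPM per kilobase. Neighbours in this order overlapped. Klf6 was above Klf4 in 4 of 6 mice, and Klf10 was above Klf15 in 2 of 6. Klf11 had 3.61 ± 1.79 FPM per kilobase and was above Klf5 in 6 of 6 mice. Klf5, the growth-linked member, had 0.450 ± 0.285 FPM per kilobase, from counts of 3 to 83 per library. Klf15 differed between the 6 control cultures at 24 h with a coefficient of variation of 19.2%, where the other 9 genes ran from 14.7% (Klf3) to 63.3% (Klf5).

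After 48 h the same 2 genes led and Klf11 and Klf5 again closed the order. Klf6 had 38.9 ± 7.16 and Klf4 33.6 ± 17.4 FPM per kilobase (SD, n = 10), with Klf6 above Klf4 in 7 of 10 libraries. Klf15 stood at 7.10 ± 3.32 FPM per kilobase and its coefficient of variation was 46.8% over the controls of both batches. The batches differed in their Klf15 controls. These ran from 13.5 to 38.4 FPM in the EGF/U46619 batch and from 8.31 to 20.9 FPM in the EGF/AngII batch. Klf15 was above its neighbour Klf10 in 6 of 10 libraries. Klf5 stayed at 0.361 ± 0.284 FPM per kilobase.

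**Figure D1:**
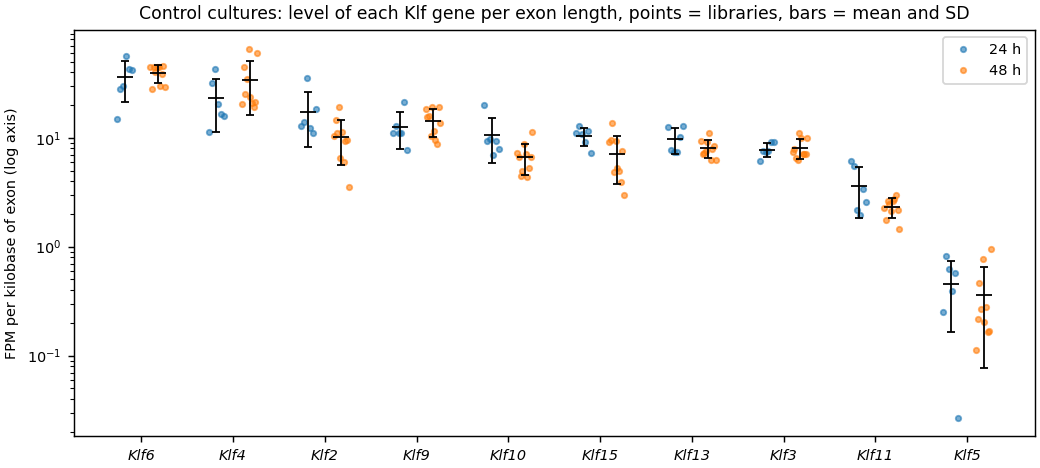
Level of the 10 KLF genes in control cultures as FPM per kilobase of exon, on a log axis, after 24 h (6 libraries) and 48 h (10 libraries). Points are libraries, horizontal marks with bars are the mean and SD. Klf6 and Klf4 lead at both times, and Klf5 lies below every other member.

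The first question was what each receptor did on its own to the KLF genes after 24 h. With U46619, the activator of TP, Klf15, Klf11, Klf2 and Klf3 were called lower, and no KLF gene was called higher. The calls of Klf11, Klf2 and Klf3 depended on single mice, as given below. Klf15 fell most, to 0.353 of control. EGF alone gave Klf15 and Klf11 estimates of similar size to each other, and neither was called. AngII alone gave no call.

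Klf15 counted 20.1, 30.5 and 35.8 FPM (lowest, median and highest of 6 mice) in control, and 6.17, 10.3 and 14.8 FPM with U46619. The ranges did not overlap, and Klf15 was below its own control in 6 of 6 mice. The log2-fold change was -1.50 ± 0.22 (SE, edgeR FDR 1.66e-05, DESeq2 FDR 8.52e-10). By mouse, the log2 ratio to the own control ran from -2.44 in mouse 2 to -0.92 in mouse 6. Klf11 counted 8.46, 12.9 and 26.8 FPM in control and 7.95, 8.95 and 9.84 FPM with U46619. The control cultures spread over more than the U46619 cultures, whose values sat at the low end of the control range. The log2-fold change of Klf11 was -0.69 ± 0.22 (edgeR FDR 0.0135). It was -1.56 in mouse 1 and -1.33 in mouse 2, where control Klf11 was 26.8 and 23.7 FPM, and 0.06 in mouse 3 and -0.09 in mouse 4, where control was 9.40 and 8.46 FPM. Klf11 was lower in 5 of 6 mice.

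Klf2 was lower with U46619 in 6 of 6 mice, although its ranges overlapped (20.5, 24.7 and 65.1 FPM in control, 13.7, 18.6 and 37.7 FPM with U46619). The log2-fold change was -0.48 ± 0.17 (edgeR FDR 0.0298). Klf3, a repressor that recruits CtBP, was also lower in 6 of 6 mice, with 68.6, 84.2 and 103 FPM in control and 53.4, 71.5 and 85.9 FPM with U46619. Its log2-fold change was -0.31 ± 0.11 (edgeR FDR 0.0295). Without the mouse as a replicate block neither was called (edgeR FDR 0.402 for Klf2 and 0.286 for Klf3), and Klf11 was not either (FDR 0.0547). Of the 10 KLF genes 4 were called lower, and 14.1% of all 14653 genes tested were. The median log2-fold change of the 10 genes was -0.31, beside -0.06 over all genes tested.

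The call for Klf3 was lost without mouse 1, 2, 4, 5 or 6 (edgeR FDR 0.0840 to 0.139, log2-fold change -0.30 to -0.27), that for Klf2 without mouse 2, 3, 5 or 6 (FDR 0.0558 to 0.0982, -0.47 to -0.41) and that for Klf11 without mouse 1, 2 or 5 (FDR 0.0510 to 0.0986, -0.66 to -0.47). Klf15 kept its call without any 1 of the 6 mice. Some genes gained a call. Without mouse 3, Klf9 was called lower (-0.37, FDR 0.0394) and Klf13 higher (0.34, FDR 0.0203), and without mouse 6 Klf10 was called lower (-0.52, FDR 0.0366).

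The other 6 genes were not called with U46619. Klf6 was higher than its own control in 6 of 6 mice, with a log2-fold change of 0.34 ± 0.17 (edgeR FDR 0.108), and Klf13 in 5 of 6 (0.31 ± 0.15, FDR 0.0952). Klf10 was lower in 5 of 6 mice (-0.41 ± 0.19, FDR 0.0866) and Klf9, a gene induced by glucocorticoids and thyroid hormone, in 5 of 6 (-0.32 ± 0.16, FDR 0.132). Klf4 showed -0.05 ± 0.27, with a 95% interval from -0.60 to 0.51. Klf5 showed 0.39 ± 0.33 and had a mean of 2.79 ± 1.38 FPM with U46619 (SD, n = 6), under the 5 FPM a call needs.

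**Figure D2:**
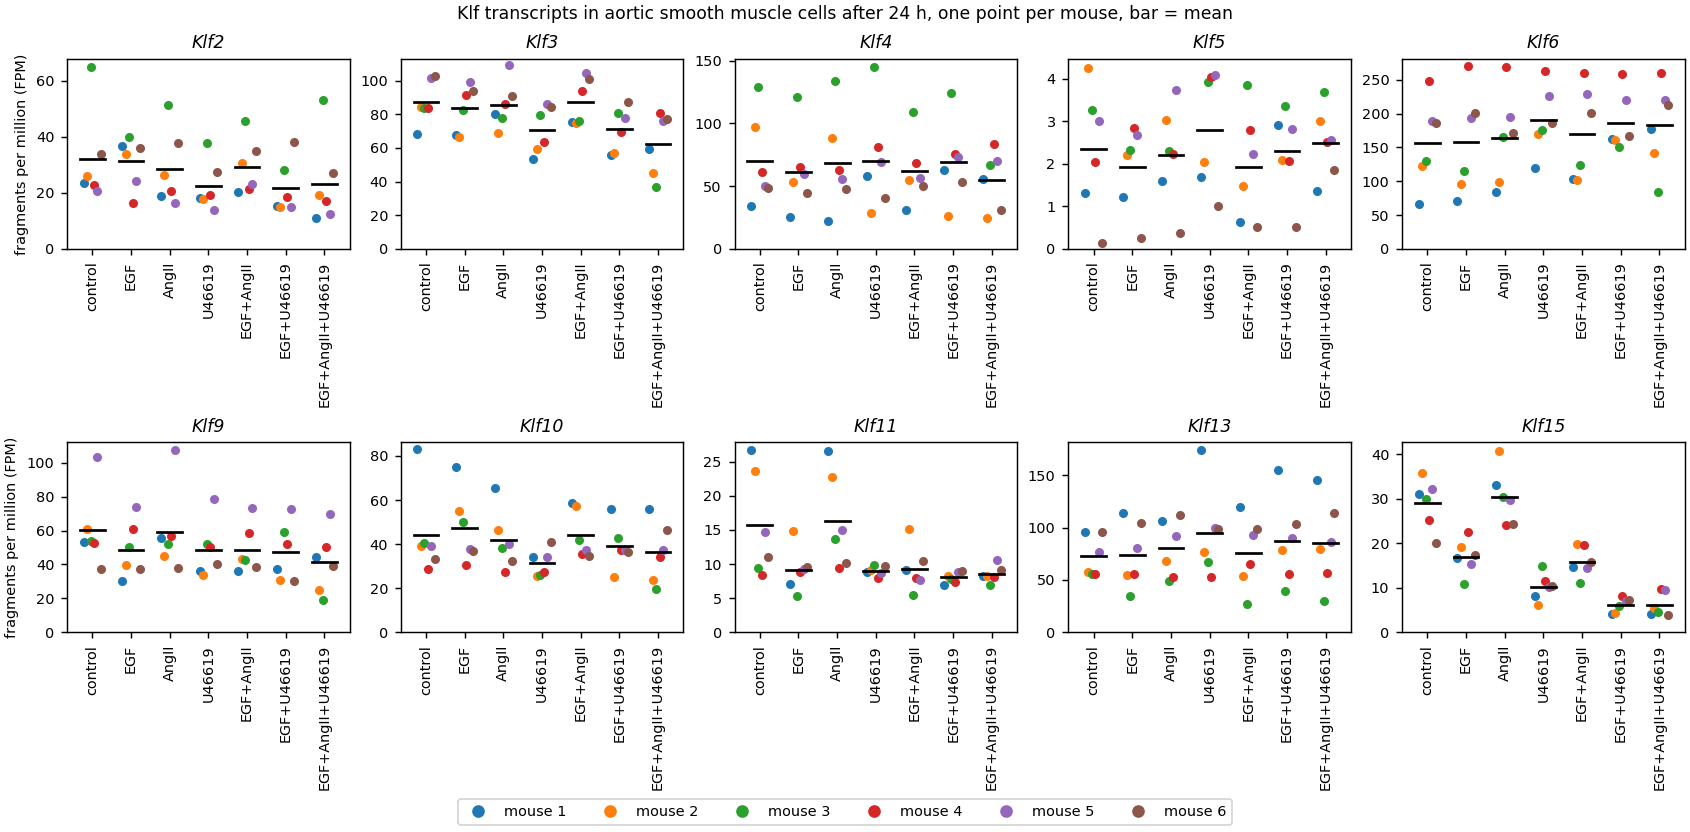
FPM of each KLF gene after 24 h in 7 groups. Each point is the culture of 1 mouse, with the mouse given by colour, and the bar is the group mean. Klf15 drops from a mean of 29.1 FPM in control to 10.2 with U46619 and 6.06 with EGF+U46619, while Klf4 means stay between 55.1 and 70.3 FPM.

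EGF alone left Klf15 at 10.8, 17.0 and 22.5 FPM (lowest, median and highest of 6 mice), below the own control in 6 of 6 mice but overlapping the control range. The log2-fold change was -0.79 ± 0.22, with an edgeR FDR of 0.0880 and a DESeq2 FDR of 0.0235, so the tools differed. Klf11 was likewise split, at -0.73 ± 0.22 (edgeR FDR 0.101, DESeq2 FDR 0.0355), and was lower in 5 of 6 mice. Of the 10 genes 0 were called by both tools with EGF, 2 by DESeq2 alone, and 2 had an unadjusted edgeR p under 0.05. Over all genes 0.0273% were called. Without mouse 6, edgeR called Klf15 too (-0.86, FDR 0.0483). The study itself reported Klf15 as significantly lowered by EGF alone at 24 h. AngII gave Klf15 a log2-fold change of 0.07 ± 0.21 and a range of 24.2 to 40.8 FPM. Of the 10 genes 0 were called with AngII by either tool, 0 had an unadjusted edgeR p under 0.05, and 0% of all genes were called.

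The combinations with U46619 took Klf15 lowest. With EGF+U46619, Klf15 counted 4.12, 6.39 and 8.10 FPM (lowest, median and highest of 6 mice), below every control and every EGF culture. The log2-fold change against control was -2.27 ± 0.23 (edgeR FDR 6.31e-08), or 0.207 of control. With EGF+AngII+U46619 the values were 3.80, 5.01 and 9.60 FPM and the log2-fold change -2.28 ± 0.23 (edgeR FDR 4.12e-08). Klf15 was lower than the own control in 6 of 6 mice with either combination.

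Klf11, Klf2 and Klf3 fell with EGF+U46619 too, each with overlapping ranges. Klf11 counted 6.97, 8.08 and 8.99 FPM, with a log2-fold change of -0.86 ± 0.22 (edgeR FDR 0.00221). Klf2 counted 14.8, 16.9 and 38.1 FPM, with -0.52 ± 0.17 (FDR 0.0166). Klf3 counted 55.9, 73.7 and 87.4 FPM, with -0.30 ± 0.11 (FDR 0.0298). So 4 of the 10 genes were called lower with EGF+U46619, beside 16.1% of all genes. The call for Klf3 was lost without mouse 1, 2, 4, 5 or 6 (FDR 0.0653 to 0.162, log2-fold change -0.30 to -0.24) and that for Klf2 without mouse 2 or 3 (FDR 0.0799 and 0.0682, log2-fold change -0.46 and -0.38), and both were lost without the mouse as a replicate block (FDR 0.258 and 0.307). With only the groups compared in the fit, Klf11 was lost as well (-0.82, FDR 0.0521) and Klf15 alone was called. Without mouse 3, Klf9 was called lower (-0.48, FDR 0.00745) and Klf13 higher (0.30, FDR 0.0358), and without the mouse 3 library that stood apart Klf9 was called lower (-0.37, FDR 0.0201).

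EGF+AngII+U46619 gave the same 4 genes and Klf9. Klf9 counted 19.2, 41.7 and 69.6 FPM, against 37.4, 53.4 and 103 FPM in control, and the groups overlapped. Its log2-fold change was -0.55 ± 0.16 (edgeR FDR 0.00767). That makes 5 of 10 genes called lower, beside 16.2% of all genes. The library of mouse 3 that stood apart is in this group, and it held the lowest Klf9 and Klf3 of the 6. Without it, Klf9 was -0.39 (FDR 0.0212), Klf3 was -0.38 (FDR 0.000802), Klf2 was -0.67 (FDR 0.00178), Klf11 was -0.79 (FDR 0.00590), Klf15 was -2.21 and Klf6 was called higher at 0.43 (FDR 0.0236). Without all libraries of mouse 3, Klf6 (0.43, FDR 0.0371) and Klf13 (0.30, FDR 0.0292) were called higher. Without the replicate block the calls for Klf2 (FDR 0.406) and Klf9 (FDR 0.208) were lost, and with only the groups compared Klf15 alone was called. The call for Klf9 was lost without mouse 2 (-0.39, FDR 0.0888), and that for Klf2 without mouse 1 or 5 (-0.42 and -0.46, FDR 0.0563 and 0.0679).

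EGF+AngII called Klf15 only, with 11.0, 15.2 and 19.9 FPM, below every control. Its log2-fold change was -0.88 ± 0.22 (edgeR FDR 0.0401, DESeq2 FDR 0.00571). That is 1 of 10 genes called lower, beside 1.58% of all genes. The call was lost without mouse 1, 2, 3 or 5 (edgeR FDR 0.0924 to 0.323, log2-fold change -0.89 to -0.78), without the replicate block (FDR 0.200) and with only the groups compared (FDR 0.113). Klf11 was called as well without mouse 6 (-0.81, FDR 0.0370) and without the mouse 3 library that stood apart (-0.71, FDR 0.0353). Set against EGF directly, EGF+AngII differed by -0.10 ± 0.22 in Klf15 (95% interval -0.53 to 0.34), so the addition of AngII was not distinguishable at this spread. Of the 10 genes 0 were called for EGF+AngII against EGF, 0 had an unadjusted edgeR p under 0.05, and 0% of all genes were called.

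**Figure D3:**
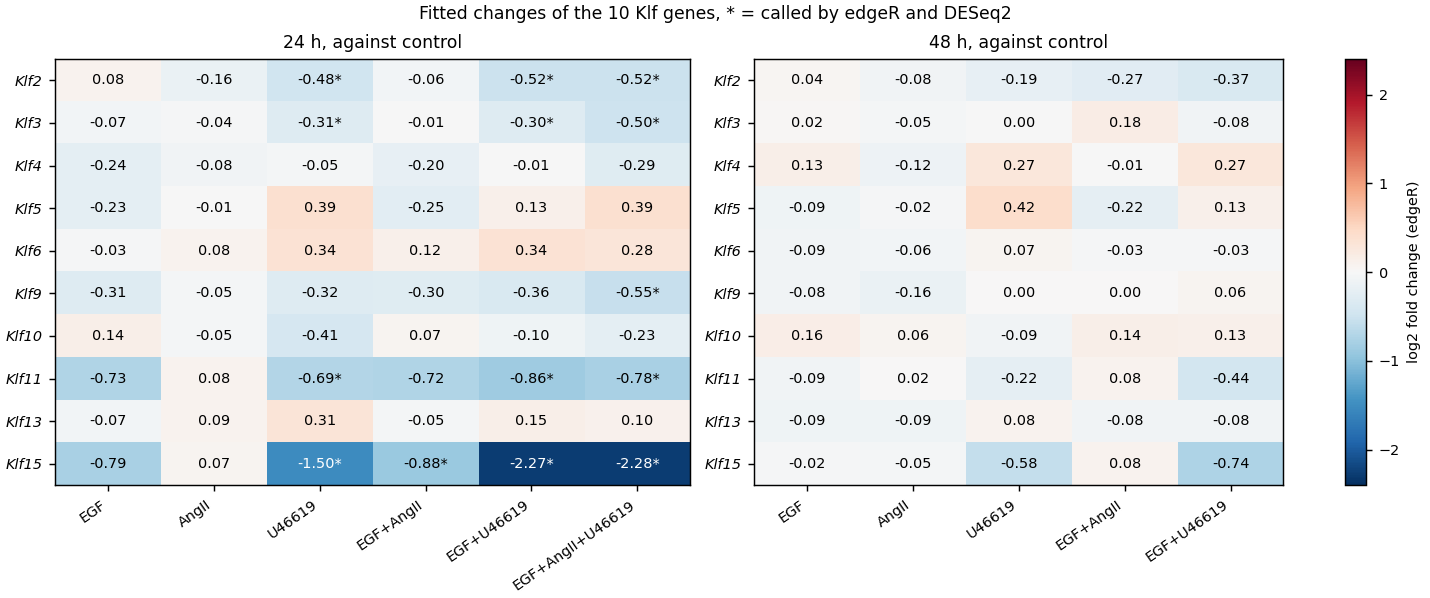
Fitted log2-fold changes against control (edgeR) for the 10 KLF genes after 24 h (left) and 48 h (right), with an asterisk where edgeR and DESeq2 both called the gene. At 24 h, called values are all negative and lie in 5 rows, Klf2, Klf3, Klf9, Klf11 and Klf15, and at 48 h there are none.

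The next question was whether the combination differed from its parts. EGF+U46619 lowered Klf15 below EGF alone, by -1.49 ± 0.22 (edgeR FDR 5.47e-05), and Klf2 by -0.60 ± 0.17 (FDR 0.0163), which makes 2 of 10 genes called lower beside 6.21% of all genes. The call for Klf2 was lost without mouse 1, 2 or 5 (FDR 0.0639 to 0.160, log2-fold change -0.58 to -0.43), without the replicate block (FDR 0.617) and with only the groups compared (FDR 0.0880). Klf3 was called lower without mouse 3 (-0.28, FDR 0.0228) and without its library that stood apart (-0.23, FDR 0.0435). Klf11 did not differ beyond its error between EGF+U46619 and EGF (-0.13 ± 0.22). Against U46619 alone, Klf15 was lower by -0.77 ± 0.22 with an unadjusted p of 0.00145, which did not pass adjustment in edgeR's quasi-likelihood test (FDR 1) or in DESeq2 (FDR 0.774). The 95% interval ran from -1.22 to -0.32. Of the 10 genes 0 were called for this contrast, 1 had an unadjusted edgeR p under 0.05, and 0% of all genes were called.

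U46619 and EGF, set against each other, differed in 3 of the 10 genes, beside 5.09% of all genes called lower. With U46619, Klf15 was lower than with EGF (-0.72 ± 0.22, edgeR FDR 0.0256), as were Klf2 (-0.56 ± 0.17, FDR 0.0271) and Klf10 (-0.55 ± 0.19, FDR 0.0443). Klf10 counted 30.6, 43.9 and 74.9 FPM with EGF and 25.3, 30.5 and 41.1 FPM with U46619, and the ranges overlapped. The call for Klf10 was lost without mouse 1, 2, 3, 4 or 5 (FDR 0.0610 to 0.196, log2-fold change -0.64 to -0.43), that for Klf15 without mouse 1, 2, 4 or 5 (FDR 0.0563 to 0.151, -0.75 to -0.57) and that for Klf2 without mouse 1, 2 or 5 (FDR 0.115 to 0.170, -0.51 to -0.43). All 3 were lost without the replicate block (FDR 0.162 to 0.754) and with only the groups compared (FDR 0.0653 to 0.0801). Klf3 was called lower without mouse 3 (-0.28, FDR 0.0246). Without the mouse 3 library that stood apart, Klf3 was called lower (-0.24, FDR 0.0438) and Klf13 higher (0.38, FDR 0.0454). Without the mouse 3 library that stood apart, 5 of the 10 were called, with Klf3 lower (-0.24, FDR 0.0438) and Klf13 higher (0.38, FDR 0.0454).
AngII added to EGF+U46619 gave no call. Klf15 differed by -0.01 ± 0.22, with a 95% interval from -0.46 to 0.45, and Klf3 by -0.20 ± 0.11. Without the mouse 3 library that stood apart, Klf15 differed by 0.06 (95% interval -0.42 to 0.53) and Klf3 by -0.08. Of the 10 genes 0 were called for this contrast, 0 had an unadjusted edgeR p under 0.05, and 0% of all genes were called.

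Whether EGF and U46619 added up depended on the scale. On the log2 scale of the fit, the departure of EGF+U46619 from the sum of both single effects was 0.02 ± 0.31 for Klf15 (95% interval -0.62 to 0.66), close to a product of the 2 fold changes. Over the 10 genes it ran from -0.12 in Klf2 to 0.56 in Klf11 (± 0.31, unadjusted p 0.0747, edgeR FDR 1). Klf11 had means of 9.14 FPM with EGF, which was not called, 9.01 FPM with U46619 and 8.06 FPM with both. Of the 10 genes 0 were called, 0 had an unadjusted edgeR p under 0.05, and 0% of all genes departed.
The study's own expected fold change works on signed linear fold changes, in which a fall is written as minus the inverse of the ratio. It adds the 2 single fold changes and then adds 1, or subtracts 1 where both are rises, so that 1 unit of control is not counted again. On that scale the fall of Klf15 exceeded the expectation. Where both stimuli lower a gene, as in 6 of 6 mice here, 2 falls that only multiply exceed this expectation too. The test on this scale therefore cannot tell an excess from a product. The measured fold change of EGF+U46619 was -5.28 ± 2.29 (SD, n = 6 mice), and the expected one -3.97 ± 1.68, from -1.81 ± 0.617 with EGF and -3.16 ± 1.49 with U46619. Measured minus expected was -1.31 ± 0.916, lower in 6 of 6 mice, from -2.87 in mouse 1 to -0.347 in mouse 5 (exact two-sided sign-flip permutation test, p = 0.03125, the smallest 6 mice allow). The same cultures on the log2 scale gave 0.07 ± 0.35, lower in 3 of 6 mice (exact permutation test, p = 0.62).

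**Figure D4:**
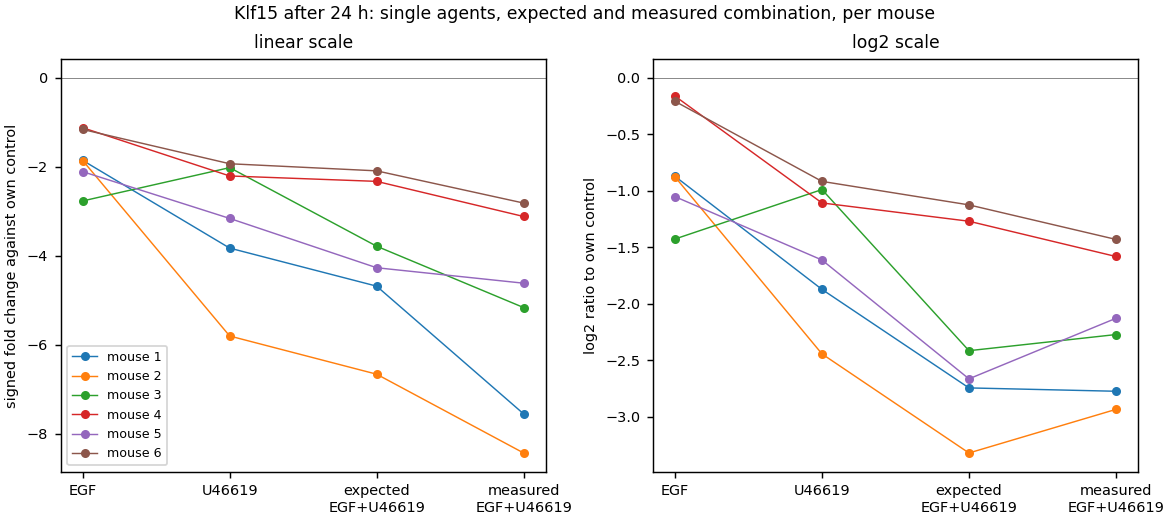
Klf15 after 24 h in each of 6 mice, as signed linear fold change (left) and log2 ratio to the own control (right), for EGF, U46619, the value expected from both, and the value measured with EGF+U46619. The measured value lies below the expected one in 6 of 6 mice on the linear scale and in 3 of 6 on the log2 scale.

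After 48 h, none of the 10 genes was called in any comparison under the fit with the mouse number as block. Klf15 had the lowest estimates of the 10 genes where a U46619 group was compared with control or with EGF, and not elsewhere. In the EGF/U46619 batch, Klf15 counted 25.5, 26.4, 38.4, 13.5 and 25.8 FPM in the control cultures of sets 1 to 5 and 15.5, 19.0, 16.4, 7.37 and 18.8 FPM with U46619. With EGF+U46619 it counted 12.7, 19.6, 14.6, 7.34 and 14.9 FPM. Every treated culture was below its own control, while set 4 was low throughout, so the ranges overlapped.
The fit held the controls of both batches. In it, the log2-fold change of Klf15 was -0.58 ± 0.26 with U46619 (edgeR FDR 0.190) and -0.74 ± 0.27 with EGF+U46619 (edgeR FDR 0.0782, DESeq2 FDR 0.0389). Over all genes 3.70% were called with U46619 and 6.30% with EGF+U46619. Of the 10 KLF genes, 1 and 2 had an unadjusted edgeR p under 0.05.

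The labels give 5 mouse numbers for the 10 culture sets at 48 h, whereas each replicate came from its own mouse according to the methods, and the calls depend on which is used. With the culture set as replicate block, Klf15 was called with U46619 (-0.63 ± 0.21, FDR 0.0470) and with EGF+U46619 (-0.78 ± 0.21, FDR 0.0107), and Klf2 with EGF+U46619 (-0.50 ± 0.16, FDR 0.0232). In the EGF/U46619 batch alone with the same block, Klf15 was -0.75 ± 0.14 with U46619 (FDR 0.00137) and -0.89 ± 0.14 with EGF+U46619 (FDR 2.31e-04). Klf2 was -0.38 ± 0.11 and -0.56 ± 0.11 (FDR 0.0183 and 0.00103), and Klf11 was called with EGF+U46619 at -0.37 ± 0.12 (FDR 0.0249). Klf11 was below its own control in 5 of 5 sets there, with 9.65, 6.34, 7.42, 9.24 and 5.46 FPM against 9.83, 7.61, 11.5, 10.8 and 9.16 FPM. Without the control library of EGF/AngII culture set 4, Klf15 was called with EGF+U46619 (-0.85, FDR 0.0268), and so it was without that whole set (-0.79, FDR 0.0210) or without EGF/U46619 culture set 1 (-0.85, FDR 0.0429).

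Contrasts among stimuli at 48 h gave 0 of 10 calls each with the mouse number as block. Klf15 was lower with EGF+U46619 than with EGF (-0.72 ± 0.27, edgeR FDR 0.108, with 4.43% of all genes called) and lower with U46619 than with EGF (-0.56 ± 0.26, FDR 0.239, with 2.96%), each the 1 gene of 10 with an unadjusted edgeR p under 0.05. With the culture set as replicate block, EGF+U46619 against EGF called Klf15 (-0.73, FDR 0.0220) and Klf2 (-0.57, FDR 0.0136). In the EGF/U46619 batch alone it called the same 2 genes (-0.59 and -0.49, FDR 0.00912 and 0.00518), and U46619 against EGF called Klf15 (-0.45, FDR 0.0456). In EGF+U46619 against U46619, EGF against control, AngII against control, EGF+AngII against control, EGF+AngII against EGF and the departure from additivity, 0 of 10 genes were called by either tool, 0 had an unadjusted edgeR p under 0.05, and 0% of all genes were called.
EGF left Klf15 at -0.02 ± 0.21 over both batches. Within batches, with the culture set as block, it was -0.30 ± 0.14 in the EGF/U46619 batch and 0.20 ± 0.26 in the EGF/AngII batch, where set 4 had a log2 ratio of 1.98 and the other 4 sets -0.49 to 0.21. It was lower than the own control in 7 of 10 sets. In EGF/AngII culture set 4, Klf15 stood at 11.0 FPM in the control library that stood apart and at 44.6, 35.4 and 43.8 FPM with EGF, AngII and EGF+AngII. Without that control library, Klf15 was -0.14 with EGF, -0.17 with AngII and -0.05 with EGF+AngII, and 0 of 10 genes were called in these comparisons.
The linear expected fold change gave no excess at 48 h. Measured minus expected was -0.337 ± 1.17 in 5 culture sets, lower in 1 of 5 (exact two-sided sign-flip permutation test, p = 1, where 5 sets cannot go below 0.0625). In set 1, EGF and U46619 pointed opposite ways and the rule gave an expectation of 0.400, a value that a signed fold change cannot take.

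**Figure D5:**
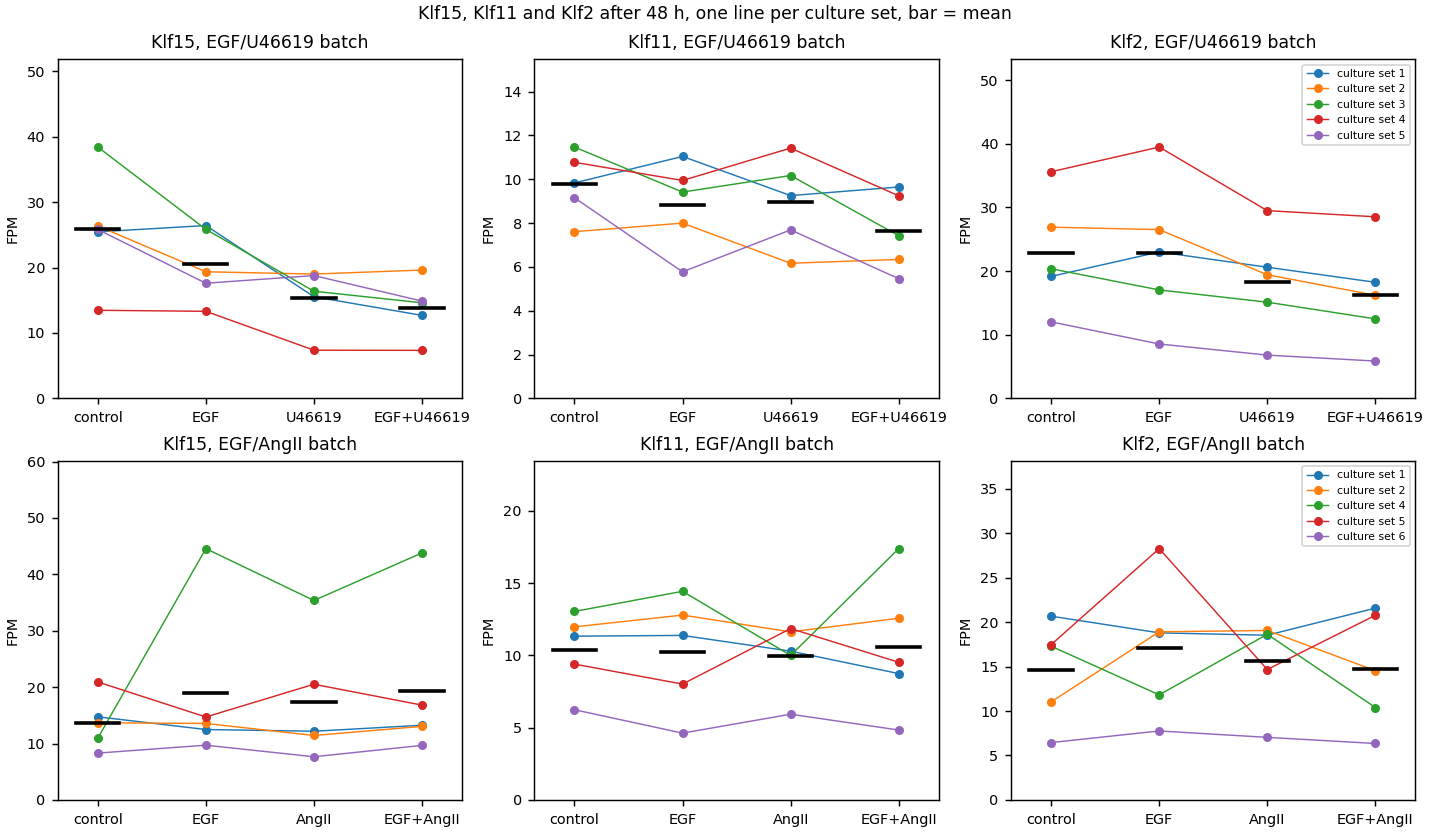
FPM of Klf15, Klf11 and Klf2 after 48 h, with 1 line per culture set and a bar at each mean, for the EGF/U46619 batch (top) and the EGF/AngII batch (bottom). In the top row Klf15 falls from control to EGF+U46619 in 5 of 5 sets, and in the bottom row set 4 has 11.0 FPM in control and 35.4 to 44.6 FPM in its other libraries.

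Klf4, Klf5, Klf6 and Klf13 were not called at either time against control, apart from the calls of Klf6 and Klf13 without mouse 3 given above. Klf4 and Klf5 were called in no comparison and under no alternative. Klf4, whose protein drives smooth muscle cells away from the contractile state, had a wide spread between mice. Over the 7 groups at 24 h its means lay between 55.1 and 70.3 FPM, while single cultures ran from 21.8 to 145 FPM. These means hide opposite directions between mice. With U46619 the log2 ratio of Klf4 to the own control ran from -1.77 in mouse 2 to 0.74 in mouse 1. With EGF+U46619 it ran from -1.89 in mouse 2 to 0.87 in mouse 1. In both groups Klf4 was lower than the own control in 2 mice and not lower in 4. After 48 h the log2-fold change of Klf4 was 0.27 with U46619 and 0.27 with EGF+U46619. Klf5 means lay between 1.71 and 2.79 FPM over both times. Klf6, the most abundant member, ran from 156.9 ± 63.9 FPM in control to 190 ± 49.2 FPM with U46619 at 24 h (SD, n = 6).

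Across the 42 libraries at 24 h, with the mean of each mouse removed from log2(FPM + 0.5), Klf15 varied most like Klf11 (r = 0.76) and Klf3 (r = 0.71) among its relatives. It ran with Klf2 at 0.61 and against Klf6 at -0.47. These correlations share libraries and treatments and are given as a description. Over 10161 other genes, the highest were Mettl7a1 (0.97), Thra (0.96), Lrp3 (0.95), Pxmp4 (0.95) and Appl2 (0.95), and the lowest Nop56 (-0.95), Cd44 (-0.95), Nolc1 (-0.94), Umps (-0.94) and Nsun2 (-0.94). Thra encodes a thyroid hormone receptor, and Nop56, Nolc1 and Nsun2 act in the making or modification of ribosomal and transfer RNA.

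Other genes of the family and its partners were taken from lists. Of all genes tested at 24 h, 13.5% were called higher with U46619, 17.0% with EGF+U46619 and 18.1% with EGF+AngII+U46619, which is the background for the counts of higher genes here. Called lower were 14.1%, 16.1% and 16.2% in the same order, the background for the counts of lower genes. Of 7 further KLF genes 3 were tested at 24 h (Klf7, Klf12 and Klf16) and 0 were called with U46619 or EGF+U46619. Klf8, on chromosome X, is listed at 0 and could not be tested. Of the 9 Sp genes, the nearest relatives of the KLFs, 7 were tested and 0 were called in either comparison. Of 19 cofactors and regulators 18 were tested. Srf, the partner of myocardin, was called higher with U46619 (0.62 ± 0.19) and with EGF+U46619 (0.58 ± 0.19), and Hdac2 with EGF+U46619 (0.43 ± 0.15).

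Of 8 genes linked to KLF15 in metabolism, 5 were tested, and EGF+U46619 lowered 3 and raised 0. The glucose transporter Slc2a4 was at -2.82 ± 0.65, the alanine aminotransferase Gpt at -1.02 ± 0.24 and Bcat2, which opens branched-chain amino acid breakdown, at -0.69 ± 0.22. U46619 alone lowered 1 of the 5, Gpt (-0.77 ± 0.24). The median over the 5 was -0.69 with EGF+U46619, beside -0.05 over all genes tested. EGF+AngII+U46619, the group with the mouse 3 library that stood apart, raised 1 and lowered 1 of the 5, with a median of -0.23. The part of Klf15 in the changes of this list was not tested. At 48 h, 0 of the 5 were called with U46619 or EGF+U46619, with medians of 0.05 and 0.09.
Glucocorticoids, which induce Klf15, also induce the genes of a further list. Of its 12 genes 10 were tested, and Tsc22d3, on chromosome X, is listed at 0. U46619 raised 4 of the 10 and lowered 1 at 24 h. Raised were Sgk1 (1.77 ± 0.28), Errfi1 (1.05 ± 0.29), Dusp1 (0.75 ± 0.21) and Fkbp5 (0.66 ± 0.14), while Nfkbia was lower (-0.52 ± 0.15). Sgk1, Errfi1 and Dusp1 also answer to serum and growth factors.
A list of early TGF-beta targets leaves out Klf10 and Klf11. Of 10 tested, U46619 raised 7 and lowered 1, with Ccn2 at 2.74 ± 0.49 and Ltbp2 at 1.49 ± 0.43, while Ski was lower (-0.36 ± 0.14). EGF+U46619 gave the same counts.
Of 9 genes reported to respond to KLFs in smooth muscle, 7 were tested and 2 were higher with U46619, Acta2 (2.05 ± 0.39) and Lmod1 (0.84 ± 0.32). With EGF+U46619 the 2 higher genes were Acta2 (1.62 ± 0.39) and Ccnd1 (0.64 ± 0.26).

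Markers of other cells moved beside these changes at 24 h. Of 6 fibroblast markers, 5 were lower with U46619 and 6 with EGF+U46619, beside 14.1% and 16.1% of all genes called lower. Their summed level was 595 to 3502 FPM in control, 237 to 2233 FPM with U46619 and 232 to 1275 FPM with EGF+U46619, and Dcn was -1.40 ± 0.56 with U46619. The summed smooth muscle markers ran from 1900 to 7992 FPM in control and from 5488 to 19167 FPM with U46619, with 3 of 6 tested higher, among them Cald1 (0.94 ± 0.21). With EGF+U46619, 2 of the 6 were higher and 1 was lower, with sums of 2671 to 16622 FPM. Acta2 had the highest median of this list, 2718 FPM over all libraries, followed by Cald1 with 1465 FPM. Of 6 endothelial markers tested, 0 were called with U46619, with sums of 4.85 to 2151 FPM in control and 3.03 to 1923 FPM with U46619. Of 6 leukocyte markers 3 were tested, with 1 higher and 1 lower, and sums were 20.9 to 114 FPM in control and 23.3 to 76.6 FPM with U46619. After 48 h with U46619, 1 of 6 fibroblast markers was called lower (Pi16) and 0 of 6 endothelial, 0 of 6 leukocyte and 0 of 6 smooth muscle markers tested were called. Over all genes, 3.70% were called in either direction with U46619 and 6.30% with EGF+U46619. The median log2-fold changes were -1.002 for fibroblast, -1.65 for endothelial, -1.51 for leukocyte and -0.26 for smooth muscle markers, and with EGF+U46619 -1.01, -1.55, -1.36 and -0.50, where 1 smooth muscle marker was called lower and Pi16 again was. U46619 was given in the EGF/U46619 batch alone, while the controls came from both batches. Leukocyte sums reached 539 FPM with AngII and 833 FPM with EGF+AngII, both in the EGF/AngII batch, and 76.7 FPM with U46619. These medians therefore do not fully separate U46619 from the cell make-up of the batches. The endothelial sums ran from 18.1 to 2326 FPM in the 48 h controls of both batches and from 16.2 to 909 FPM with U46619. The part of these shifts in the KLF changes was not tested.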

How the data were processed

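Poly(A) RNA libraries of 82 cultures were sequenced. The authors aligned them to mm10 with HISAT2 2.1.0 and featureCounts gave a value for each Ensembl gene, reads with several alignments included. The deposited values are raw counts, with no normalization. Genes of chromosomes 9, X, Y and MT are listed at 0, 7075 in all.

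Counts were analysed with edgeR 4.0.16 and DESeq2 1.42.0 under R 4.3.3. Python 3.11.15 with pandas 2.3.3, NumPy 2.4.6 and Matplotlib 3.10.9 served for summaries and plots. filterByExpr kept 14653 genes at 24 h and 15796 at 48 h, and a call needed a gene to pass at both (14528). For each time, 1 model held treatment and mouse number. FPM are counts scaled to the TMM library size. A standard error is the edgeR log2-fold change over the root of its F, and DESeq2 ran with its default independent filtering. FDR are Benjamini-Hochberg adjusted p from edgeR's quasi-likelihood test unless DESeq2 is named. Where nothing states separate cultures for a library, p-values measure only the spread between these libraries. The fits were tested on simulated data.

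Groups, replicates and mouse numbers are those of the labels. Libraries of the same mouse deviated together at 24 h in 126 of 126 pairs (correlation at least 0.37, median 0.80), and libraries of the same culture set at 48 h in 57 of 60 pairs over 0.1 (median 0.82). Exon lengths and gene starts come from GENCODE on GRCm38, promoters from RefSeq on GRCm38.p6.

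The KLF genes and all gene lists were chosen with earlier results of these data known. Named outside the KLF family are, per list and comparison, at most 4 called genes with the largest change, the markers, and the 5 genes most and least correlated with Klf15 among genes with a mean of at least 5 FPM. One gene that the rule would name is not reported here. Alternatives were either tool alone, DESeq2's size factors, no FPM minimum, no filter, no replicate block, only the groups compared, leaving out each mouse or culture set, and at 48 h the culture set as block, a batch term and each batch alone. Leaving out either library that stood apart was added after the data were seen.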

Additional observations from a re-analysis of the deposited data

Results flagged for a closer look

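In 11 of 130 groups of 5 to 10 libraries, the value of 1 library lay farther from the rest of its group than Dixon's 95% critical value, and chance alone flags about 1 in 20 groups.

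At 24 h these were cultures of single mice. Klf10 stood at 82.9 FPM in the control of mouse 1, next to 28.7 to 40.4 FPM in the other 5. Klf2 stood at 65.1 FPM in the control of mouse 3, next to 20.5 to 34.0 FPM. Klf9 was high in mouse 5, with 103 FPM in control (others 37.4 to 61.1 FPM) and 108 FPM with AngII (others 37.8 to 56.7 FPM).

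At 48 h, Klf15 stood at 44.6 FPM with EGF and at 43.8 FPM with EGF+AngII in EGF/AngII culture set 4, next to 9.71 to 26.4 FPM and 9.67 to 16.8 FPM in the other sets. The control library of that set is the one that stood apart. Klf5 was high in EGF/AngII culture set 6, with 4.78 FPM with AngII (others 0.944 to 1.57 FPM), 4.83 FPM with EGF (others 0.745 to 2.69 FPM) and 5.27 FPM with EGF+AngII (others 0.572 to 1.88 FPM). Klf6 was low in EGF/U46619 culture set 2 with U46619, at 115 FPM next to 187.2 to 213 FPM. Klf9 was high in EGF/U46619 culture set 1 with EGF+U46619, at 86.1 FPM next to 68.7 to 71.4 FPM.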

How the results depend on the processing

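Klf15 kept its call against control with U46619, EGF+U46619 and EGF+AngII+U46619, and in EGF+U46619 against EGF, at 24 h under every alternative run. The other calls depended on the processing, and the cause was not tested. Fits without a mouse, a culture set or the other groups also held fewer samples. Counts below are KLF genes called of 10.

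At 24 h without the replicate block, 1 gene was called with U46619, 0 with EGF+AngII, 2 with EGF+U46619, 3 with EGF+AngII+U46619, 1 in EGF+U46619 against EGF and 0 in U46619 against EGF. With only the groups compared in the fit, 0 were called with EGF+AngII, 1 with EGF+U46619, 1 with EGF+AngII+U46619, 1 in EGF+U46619 against EGF and 0 in U46619 against EGF. Without a filter on low counts, 2 were called with U46619. DESeq2 alone called 2 with EGF, where Klf15 was -0.79 on the log2 scale, and 2 with EGF+AngII. Without the EGF+AngII+U46619 library of mouse 3, 2 were called with EGF+AngII and 5 in U46619 against EGF.

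Leaving out 1 mouse at a time gave 0 to 1 genes with EGF, 1 to 5 with U46619, 0 to 2 with EGF+AngII, 2 to 5 with EGF+U46619, 1 to 3 in EGF+U46619 against EGF and 0 to 3 in U46619 against EGF. Klf15 with EGF then ran from -0.88 to -0.67. Measured minus expected fold change of Klf15 ran from -1.51 to -1.002, each with the smallest p that 5 mice allow (exact permutation test, 0.0625). On the log2 scale that difference changed sign, to 0.0695.

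At 48 h the culture set as replicate block gave 1 gene with U46619 (Klf15, -0.63), 2 with EGF+U46619 (Klf15, -0.78) and 2 in EGF+U46619 against EGF. The EGF/U46619 batch alone with that replicate block gave 2 with U46619 (Klf15, -0.75), 3 with EGF+U46619 (Klf15, -0.89), 2 in EGF+U46619 against EGF and 1 in U46619 against EGF. DESeq2 alone called 1 with EGF+U46619 (Klf15, -0.74), as did the fit without the control library of EGF/AngII culture set 4 (1, Klf15, -0.85). Leaving out 1 culture set gave 0 to 1 with EGF+U46619, with Klf15 from -0.85 to -0.62. With batch as a further term 0 were called. Klf5 had the lowest counts of the KLF genes, 3 to 83 per control library at 24 h, and its group means stayed under the 5 FPM a call needs.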
